A study of Prunus dulcis and Malus domestica and Olea europaea with 8 samples.

Results

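The miRNA profile of orange was compared with the profiles of 7 other plant-based foods, beyond the 3 miRNA genes that dominate it. Its members were the miRNA genes with at least 1 raw count in the orange library, which were 97 of the 209 genes in the table, against 187 genes with a count in any of the 8 foods. They belonged to 44 of 88 annotated families, where a family is the set of genes that share the number in their name, and 82 families were counted in any food. Small RNA-seq, which counts RNAs of about the length of a mature miRNA, was performed with RNA from the edible portion of orange (Citrus sinensis), almond, apple, pear, walnut, olive, tomato and spinach, with 1 library per food and no treatment. The labels give an input of 0.1 g for orange and the other fruits and vegetables and 0.5 g for the nuts, whereas the study's methods give a smaller mass for walnut. All reads were placed on miRNA genes annotated in peach (Prunus persica), so a citrus miRNA was counted only where a peach gene resembled it. The same limit holds for each other food, and almond (Prunus dulcis) is of the same genus as peach. The species of the orange sample could not be checked against the data, because the tables hold peach miRNA genes only.

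Plant miRNAs are cut from hairpin precursors by DICER-LIKE1 and loaded into ARGONAUTE proteins, which they guide to mRNAs with near-complete base pairing, so that the mRNA is cut or its translation is blocked. Many of the old, conserved families act on transcription factors that control growth, organ shape, flowering and hormone responses. Others act on genes of nutrient supply, such as copper, sulfate and phosphate, and a few act on the small RNA machinery itself. These roles are best known from Arabidopsis, and they are given here as background on each family, not as something measured in orange.

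The orange library held 67019 counts on miRNA genes, against 39249 (walnut) to 212021 (apple) in the other foods. The 3 highest genes, MIR159 (ENSRNA049996936), MIR166a and MIR396, took 43.5%, 21.8% and 4.80% of the orange counts and left 20033 counts, or 29.9%, for all others. Of the 97 genes, 72 had at least 3 counts, 53 at least 10 and 35 at least 100, whereas 20 rested on 1 count each. After scaling to the 39249 counts of the smallest library, 87.4 genes were expected in orange, against 116.7 in almond, 90.7 in olive, 87.1 in tomato, 86.4 in pear, 68 in walnut, 66.1 in apple and 64.5 in spinach. Thus orange had a middle place in the number of peach miRNA genes. The spread of the counts beyond the top was another matter. The effective number of genes, which is the number of equally abundant genes that would give the same Shannon entropy, was 8.34 in orange over all genes. It was 17.8 in almond, 10.7 in olive, 9.35 in walnut, 8.60 in tomato, 8.09 in pear, 7.67 in spinach and 5.61 in apple. With the 3 highest genes of each library set aside, it was 21.8 in orange, against 17.7 in almond, 17.1 in walnut, 13.1 in pear, 10.6 in olive, 10.1 in spinach, 8.74 in apple and 7.95 in tomato. Orange therefore had the highest of the 8 values once the 3 highest genes were left out, with no replicate library to give its error. The genes left out held 70.1% of the counts in orange, against 36.6% (almond) to 79.1% (apple) in the other foods.

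**Figure D1:**
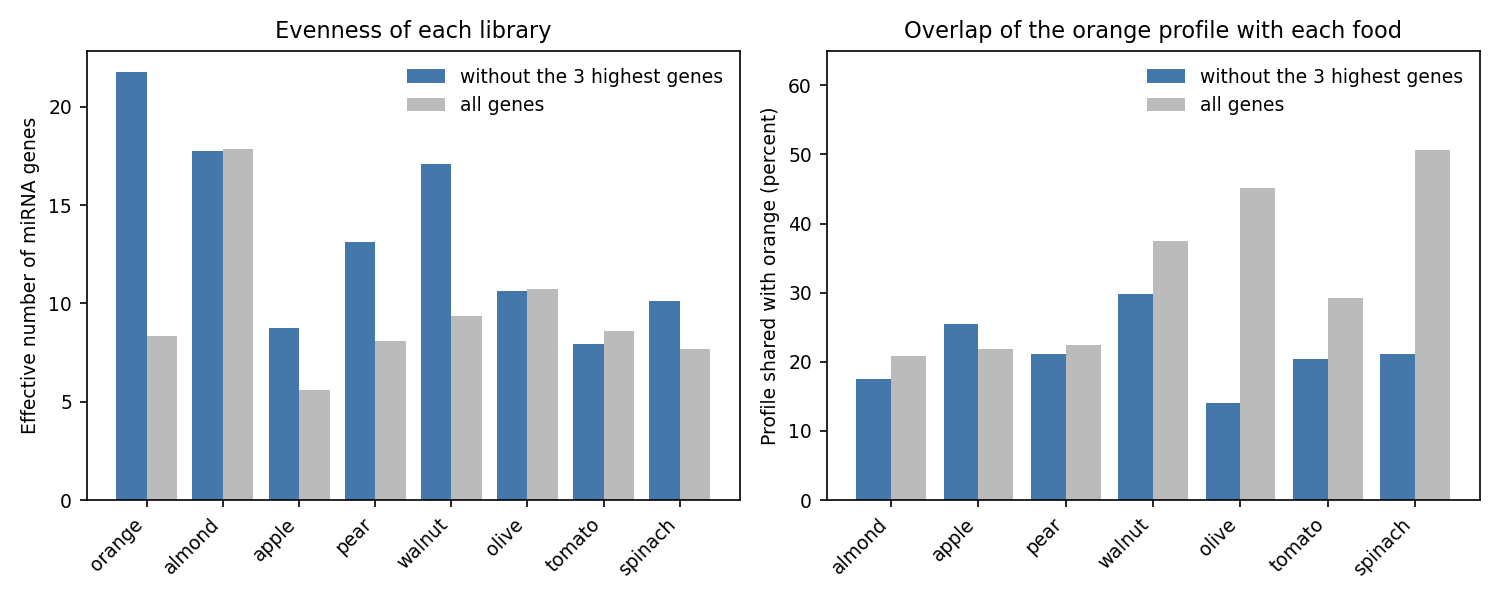
The left panel shows the effective number of miRNA genes (y axis) in each of the 8 foods, without the 3 highest genes of each library and with all genes. The right panel shows the overlap of the orange profile with each other food in percent of counts. Orange reached 21.8 effective genes without its 3 highest and 8.34 with them, and its overlap with spinach was 50.7% over all genes and 21.1% without the 3 highest.

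A share is given below as percent of all miRNA counts of a library, with an exact (Clopper-Pearson) 95% interval, and a ratio between foods has an exact conditional binomial interval. These intervals cover counting error only, since each food had 1 library and the reads carried no molecular identifiers. A count of 0 among the 67019 orange counts allows a share of up to 0.00448%. A gene was called above in orange when the lower bound of its orange share exceeded the upper bound in each of the 7 other foods, and below in the reverse case. No p-value is given, because an exact permutation test of 1 library against 7 cannot go below 0.125. By this rule 16 genes were above, which was 8.56% of the 187 genes tested. Of these 187, 90 had 0 counts in orange and could not be called above. The same rule applied to each other food gave 29 genes in almond, 13 in olive, 13 in walnut, 11 in pear, 7 in apple, 4 in tomato and 3 in spinach, so that orange was second in this order. In the other direction 1 gene was below, 5.26% of the 19 genes counted in all 7 other foods, the only ones that could be below. Summed over families, 6 families were above (7.32% of 82), namely MIR159, MIR398, MIR390, MIR827, MIR394 and MIR858, of which MIR390, MIR827 and MIR858 were also above on the authors' normalized reads, and 0 were below (0.00% of 19). At the family level almond had 17 families above, olive 8, pear 5, walnut 5, apple 3, tomato 1 and spinach 1, so that orange came after almond and olive. Whether the relation of each food to peach set these places, or those by number of genes, was not tested.

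The 16 genes above held 60.3% of the orange counts, most of them in the top MIR159 gene. The rule that chose these genes makes their sum highest in orange, and the sums are given as a description. The other 15 held 16.8% in orange, against 3.44% in walnut, 1.45% in spinach, 1.09% in tomato, 0.661% in almond, 0.538% in olive, 0.259% in pear and 0.0519% in apple. Each of the 16 had at least 110 counts in orange, and 11 of them had a count of 0 in at least 1 other food. Their ratio to the highest other food had a median of 2.66 and ran from 1.14 to 15.4 where that food had a count. All 16 belonged to the 16 groups of families described below, and 0 of the 68 genes outside these groups were above. Only 21 of these 68 genes had a count in orange, with 103 counts together, so the 0 rests on low counts.

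**Figure D2:**
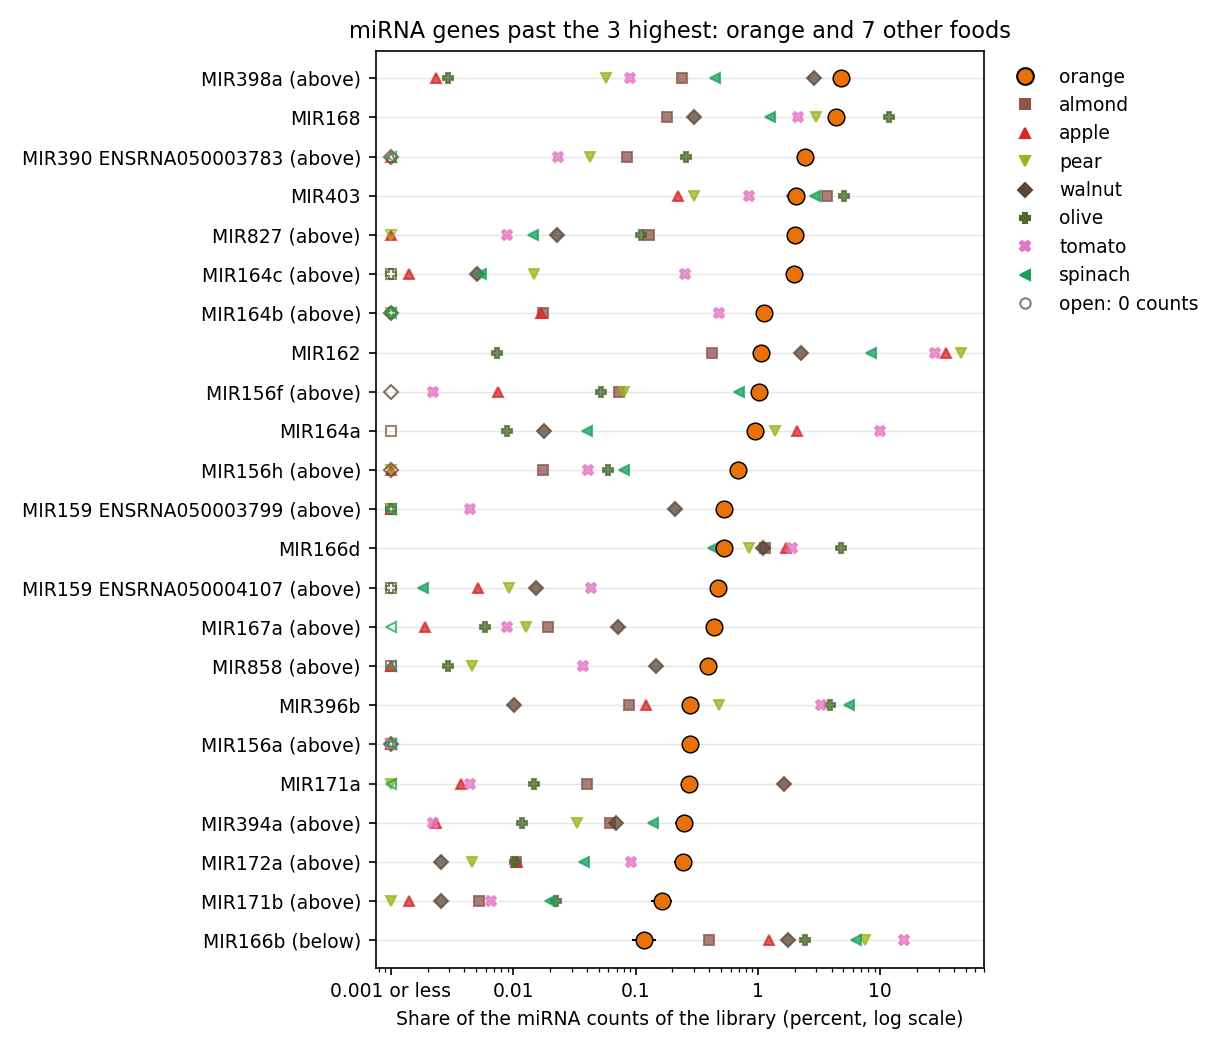
Each row is a miRNA gene past the 3 highest of orange, and the x axis is its share of the miRNA counts of the library in percent on a log scale. Orange points carry 95% counting intervals, the other symbols are the 7 other foods, and open symbols mark 0 counts. MIR827 stood at 2.01% in orange with no other food over 0.130%, and MIR166b at 0.118% with no other food under 0.400%.

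Families that act on nutrient genes gave MIR398a, the highest-ranked gene above after the 3 highest, and MIR827. MIR398a (ENSRNA049996813, peach genome NCBIv2, chromosome G4, 20111541 to 20111659, plus strand) ranked 4 in orange. Its family guides the cutting of mRNAs of copper/zinc superoxide dismutases, and in Arabidopsis it accumulates when copper is scarce. MIR398a had 3202 counts in orange, against 137 in almond, 5 in apple, 62 in pear, 1134 in walnut, 2 in olive, 82 in tomato and 247 in spinach. Its share was 4.78% (4.62 to 4.94) in orange and 2.89% in walnut, the highest other food, a ratio of 1.65 (1.54 to 1.77). On the authors' normalized reads this ratio was 1.08 and MIR398a was no longer above the other foods. The family sum included MIR398b (126 counts) and a MIR398 gene without a letter (109 counts), and it reached 5.13% in orange, against 3.06% in pear as the next food, a ratio of 1.68 (1.60 to 1.76). MIR397, whose family acts on laccases, had 0 counts in orange, against 229 in walnut, 1 in almond, 2 in apple, 1 in olive, 2 in pear, 3 in tomato and 0 in spinach.

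MIR827 (ENSRNA049997151, chromosome G7, 22179391 to 22179478, minus strand) showed, on shares, the largest ratio among the genes above that were counted in another food, a place that it lost to MIR164c and other genes on the authors' normalized reads and with edgeR's TMM scaling. The miR827 family acts on mRNAs of SPX-domain proteins of phosphate balance, and in Arabidopsis it accumulates under phosphate starvation. MIR827 had 1344 counts in orange, against 74 in almond, 1 in apple, 0 in pear, 9 in walnut, 75 in olive, 8 in tomato and 8 in spinach. The share was 2.01% (1.90 to 2.11) in orange and 0.130% in almond, a ratio of 15.4 (12.2 to 19.8). On the authors' normalized reads, which raise almond relative to orange, the gene was still above but the ratio was 1.90, and with edgeR's TMM scaling it was 8.21. The miR399 family, which acts on PHO2, a ubiquitin-conjugating enzyme of phosphate balance, was not above in orange. All 20 annotated MIR399 genes together had 40 counts in orange (0.0597%), against 0.297% in pear, 0.184% in apple, 0.103% in tomato, 0.0754% in olive, 0.0280% in walnut, 0.0182% in spinach and 0.00351% in almond. MIR827 alone thus made up 97.0% of the phosphate group in orange, and the other 24 genes of the group shared 41 counts.

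**Figure D3:**
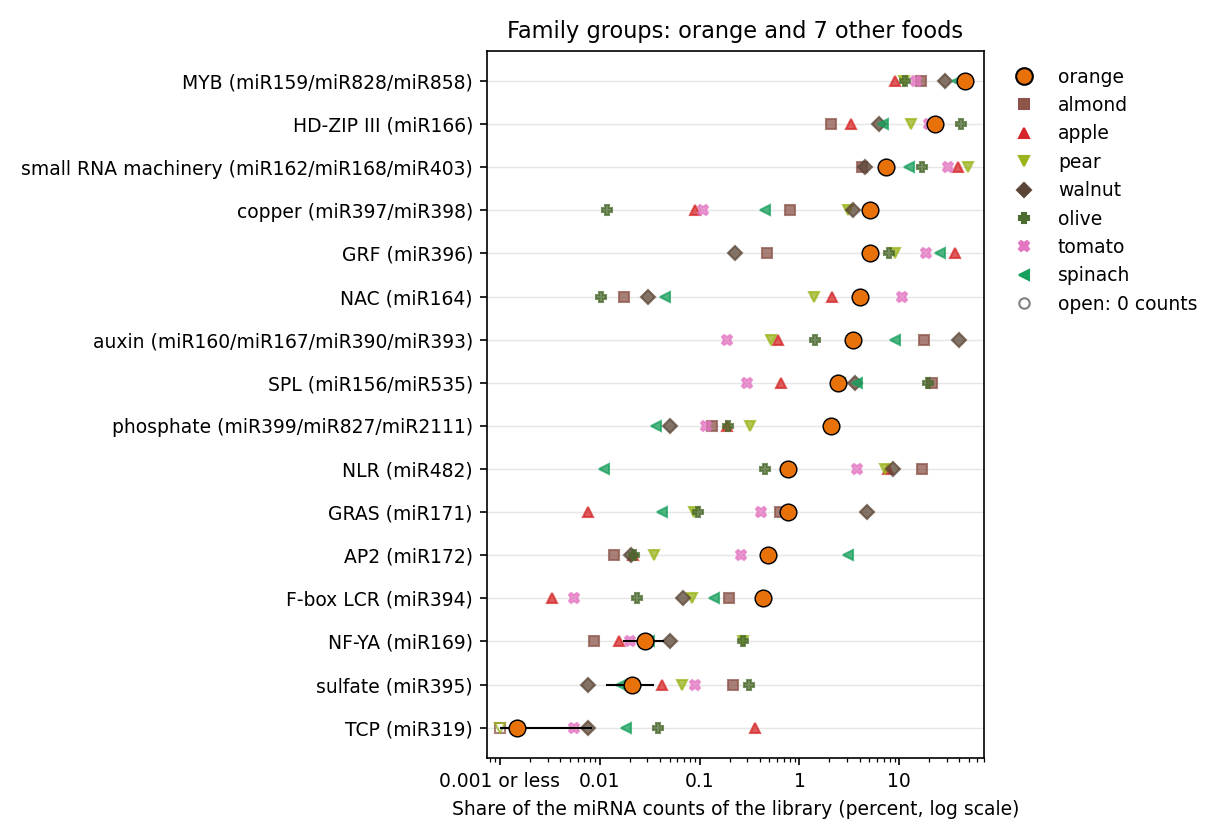
Each row is a group of miRNA families named for its best known plant targets, and the x axis is the summed share of the miRNA counts in percent on a log scale. Orange points carry 95% counting intervals and open symbols mark 0 counts. Orange lay above all other foods in the MYB (45.1%), copper (5.13%), phosphate (2.07%) and F-box LCR (0.427%) groups, of which only the phosphate group was also above on the authors' normalized reads.

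Of the 16 groups of families, 4 were above in orange (25.0%), the MYB, copper, phosphate and F-box LCR groups, and on the authors' normalized reads 2 were, the phosphate and NAC groups. The copper group held 5.13% in orange, against 3.47% in walnut, a ratio of 1.48 (1.39 to 1.57), and 1 of its 4 genes was above. The phosphate group held 2.07% in orange and 0.317% in pear, a ratio of 6.53 (5.80 to 7.37), with 1 of 25 genes above. The third nutrient group was not above. The sulfate group is the miR395 family, which acts on ATP sulfurylases and a sulfate transporter, and it had 14 counts in orange (0.0209%), with 0 of 15 genes above. Over the 187 genes tested, the median place of orange among the 8 foods was 3, where 1 is the highest share and ties take the better place. Of these genes, 90 had 0 counts in orange, and a gene at 0 in most foods still took a high place. The median place was 1 in the F-box LCR group, 1.5 in NAC, 2 in GRAS, 2.5 in AP2 and NLR, 3 in copper, phosphate, sulfate and NF-YA, 4 in MYB, auxin, TCP and small RNA machinery, 4.5 in SPL, 5 in GRF and 6 in HD-ZIP III. Genes above thus stood beside genes with middle or low places in the MYB, auxin and SPL groups. By summed share, orange was in place 6 for the NLR and sulfate groups and in place 5 for NF-YA.

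The auxin group joins families that act on the auxin response, and it held 3.41% of orange counts, the fourth place among the 8 foods. Inside it 2 of 12 genes were above, MIR390 and MIR167a. MIR390 (ENSRNA050003783, chromosome G6, 26415642 to 26415739, plus strand) ranked 6 in orange. Its family triggers the TAS3 small interfering RNAs that silence auxin response factors. This gene had 1638 counts in orange, against 49 in almond, 0 in apple, 46 in pear, 0 in walnut, 176 in olive, 21 in tomato and 0 in spinach. The share was 2.44% (2.33 to 2.56) in orange and 0.260% in olive, 9.39 times higher in orange (8.03 to 11.0). A different MIR390 gene (ENSRNA049996971) took 4 counts in orange but 97 in walnut, 84 in olive and 27 in spinach, so the family ratio to olive was lower, 6.37 (5.59 to 7.29). In the authors' normalized reads the gene ratio to the highest other food was 3.49, and it was 4.27 with TMM.

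The miR167 family acts on the auxin response factors ARF6 and ARF8, and it made a small part of the orange profile, 575 counts or 0.858%, against 39.0% in walnut, 17.6% in almond and 8.87% in spinach. MIR167a (ENSRNA049997214, chromosome G8, 20761711 to 20761846, minus strand) had 295 of these counts in orange, against 28 in walnut, 14 in pear, 11 in almond, 8 in tomato, 4 in apple, 4 in olive and 0 in spinach. Its share was 0.440% in orange and 0.0713% in walnut, a ratio of 6.17 (4.18 to 9.45), which was 2.80 on the authors' normalized reads. MIR167d and MIR167c, which took most of the family in walnut, almond and spinach, had 121 and 142 counts in orange. MIR393b, of the family that acts on the auxin receptors TIR1 and AFB, had 48 counts in orange (0.0716%), against 0.819% in olive and 0.225% in apple. Of the miR160 family, which acts on other auxin response factors, MIR160a had 0 counts in orange and was counted in 6 other foods. The whole family had 12 counts in orange (0.0179%), against 0.00802% in apple, the lowest other food, and 0.247% in walnut, the highest.

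The NAC group is the miR164 family, which restrains the CUP-SHAPED COTYLEDON genes and other NAC transcription factors in organ boundaries. It held 2714 counts or 4.05% in orange, against 10.7% in tomato, 2.12% in apple and 1.39% in pear and at most 0.0455% in spinach, walnut, almond and olive. Orange was thus in second place for the family, while 2 of the 4 genes were above all other foods. MIR164c (ENSRNA049997040, chromosome G6, 28330451 to 28330582, plus strand) had 1310 counts in orange, against 228 in tomato, 16 in pear, 3 in apple, 3 in spinach, 2 in walnut, 0 in almond and 0 in olive. The ratio of its shares, 1.95% in orange and 0.252% in tomato, was 7.77 (6.75 to 8.98). MIR164b (ENSRNA049997224) had 749 counts in orange, against 434 in tomato, 36 in apple, 10 in almond and 0 in the remaining 4 foods, a ratio of shares of 2.33 (2.07 to 2.63). MIR164a showed the opposite order, with 639 counts (0.953%) in orange, against 9034 (9.97%) in tomato and 4442 (2.10%) in apple. On the authors' normalized reads both ratios to the highest other food were larger, 24.8 for MIR164c and 7.45 for MIR164b, whereas with poscounts they were smaller, 5.07 and 1.52.

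The SPL group joins miR156, which holds back SPL transcription factors and with them the change from the juvenile to the adult phase, and miR535. Its share was 2.42% in orange, against 21.0% in almond, 19.3% in olive, 3.81% in spinach, 3.58% in walnut, 2.55% in pear, 0.659% in apple and 0.298% in tomato. The group was in sixth place in orange, while 3 of its 12 genes were above. MIR156f (ENSRNA049996556, chromosome G3, 16336244 to 16336387, plus strand) had 681 counts in orange, against 383 in spinach, 87 in pear, 42 in almond, 35 in olive, 16 in apple, 2 in tomato and 0 in walnut. Its share was 1.02% in orange and 0.697% in spinach, a ratio of 1.46 (1.28 to 1.66). MIR156h (ENSRNA049996563) begins 422 bp downstream of MIR156f on the same strand, and had 461 counts in orange, against 44 in spinach, 40 in olive, 37 in tomato, 10 in almond, 2 in apple and 0 in pear and walnut. The ratio for MIR156h was 8.59 (6.29 to 12.0), and 4.81 on the authors' normalized reads.

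MIR156a (ENSRNA049997132, chromosome G7, 18998140 to 18998228, minus strand) was counted in orange alone, with 186 counts and a share of 0.278% (0.239 to 0.320), and 0 counts in each of the 7 other foods. Against a floor of 3 counts in walnut, the smallest library, its share was at least 36.3-fold higher in orange. On the authors' normalized reads, which raise almond relative to orange, the bound against 3 counts in almond was 6.47-fold. Only 1 other gene, MIR6286, was counted in orange alone, and it had 1 count. Other genes of the group were lower in orange than in several foods. MIR156e had 86 counts in orange (0.128%), against 5.90% in almond and 1.92% in spinach. MIR535b had 42 counts in orange (0.0627%) and 11.4% of the counts in almond.

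The MYB group, with miR159, miR828 and miR858, held 45.1% in orange, against 38.2% in spinach, 28.7% in walnut, 16.7% in almond, 14.7% in tomato, 11.5% in olive, 11.2% in pear and 9.07% in apple. Here 4 of 11 genes were above, among them the top gene of the library at a ratio of 1.14 to spinach. Both that gene and the group were no longer above on the authors' normalized reads or with a 2-fold minimum. Beyond that top gene the group had 1041 counts in orange, and most fell on another 3 genes. MIR159 (ENSRNA050003799, chromosome G7, 20697878 to 20697987, plus strand) had 357 counts in orange, against 83 in walnut, 4 in tomato and 0 in the remaining 5 foods, a share of 0.533% in orange and 0.211% in walnut, with a ratio of 1.64 on the authors' normalized reads. MIR159 (ENSRNA050004107, chromosome G1, 30830878 to 30831096, plus strand) had 314 counts in orange, against 39 in tomato, 11 in apple, 10 in pear, 6 in walnut, 1 in spinach and 0 in almond and olive. The ratio to tomato was 10.9 (7.79 to 15.6), and the ratio to the highest other food was 20 on the authors' normalized reads, 17.1 with edgeR's TMM scaling and 7.10 with the poscounts factors of DESeq2. The miR159 family acts on GAMYB-like factors of seed and anther development. MIR858 (ENSRNA049996946, chromosome G5, 17621572 to 17621974, plus strand) belongs to a family that acts on MYB factors of flavonoid synthesis. It had 262 counts in orange, against 58 in walnut, 34 in tomato, 5 in pear, 2 in olive, 1 in apple and 0 in almond and spinach. Its share was 0.391% in orange and 0.148% in walnut, a ratio of 2.65 (1.98 to 3.58), which was 1.73 on the authors' normalized reads. MIR828, whose family also acts on MYB factors, had 0 counts in orange, against 56 in olive, 7 in spinach, 4 in walnut, 1 in tomato and 0 elsewhere.

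Some genes of meristem and flower families were above in orange at low shares. MIR394a (ENSRNA049996219) belongs to the family that acts on the F-box gene LEAF CURLING RESPONSIVENESS, which in Arabidopsis takes part in keeping the shoot meristem. It had 166 counts in orange, against 76 in spinach, 36 in pear, 35 in almond, 27 in walnut, 8 in olive, 5 in apple and 2 in tomato. Its share was 0.248% in orange and 0.138% in spinach, a ratio of 1.79 (1.36 to 2.38), but on the authors' normalized reads almond was higher and the ratio was 0.495. MIR394b had 120 counts in orange (0.179%), against 0.137% in almond, and its intervals overlapped. The family sum of 0.427% in orange was 2.15 times (1.73 to 2.70) that of almond, 0.198%. MIR172a (ENSRNA049996993), of the family that acts on AP2-like factors of flowering, had 163 counts in orange, against 83 in tomato and at most 23 in each other food, a ratio of 2.66 (2.03 to 3.50) to tomato, with a ratio to the highest other food of 4.17 with TMM and 1.73 with poscounts. The AP2 group as a whole was in second place in orange, at 0.480%, against 3.06% in spinach. MIR171b (ENSRNA049997136), of the family that acts on GRAS factors of the meristem, had 110 counts in orange, against 15 in olive, 11 in spinach, 6 in tomato, 3 in almond, 3 in apple, 1 in pear and 1 in walnut. The ratio was 7.40 (4.30 to 13.7), but 3.83 on the authors' normalized reads and 3.36 with TMM. MIR171a and MIR171f, the higher genes of the family in orange with 185 and 164 counts, had 645 and 962 counts in walnut, where their shares were higher.

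The genes whose families act on the small RNA machinery held upper ranks in orange, and 0 of the 3 were above. MIR168, which acts on ARGONAUTE1, had 2894 counts (4.32%) in orange, against 11.7% in olive, 4.47% in apple, 2.98% in pear, 2.12% in tomato, 1.27% in spinach, 0.298% in walnut and 0.181% in almond. MIR403, which acts on ARGONAUTE2, had 1365 counts (2.04%) in orange, against a median of 1.96% over the other foods, in walnut, and a highest value of 5.03% in olive. MIR162, which acts on DICER-LIKE1, was the top gene in pear and tomato. It was also among the 3 highest genes in apple and spinach, but not in orange, walnut, almond or olive. It had 716 counts (1.07%) in orange, against 45.7% in pear, 34.1% in apple, 27.9% in tomato, 8.37% in spinach, 2.25% in walnut, 0.423% in almond and 0.00739% in olive. With MIR162 included, the machinery group was in sixth place in orange, at 7.42%.

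MIR166b (ENSRNA049997204, chromosome G8, 20544987 to 20545082, plus strand) was the gene below all other foods. Its family acts on HD-ZIP III factors of leaf polarity and vascular tissue. It had 79 counts in orange, against 14218 in tomato, 8145 in pear, 3507 in spinach, 2598 in apple, 1629 in olive, 694 in walnut and 228 in almond. The share was 0.118% (0.0933 to 0.147) in orange, against 0.400% in almond, 2.41% in olive (the median of the 7) and 15.7% in tomato. The ratio to almond was 0.295 and, without almond, the ratio to the next lowest food was 0.0962. With edgeR's TMM scaling the ratio to the lowest other food was 0.718 and the gene was no longer below, while it was still below at 0.731 on the authors' normalized reads and at 0.589 with poscounts. The miR166 family held 22.7% in orange, and only olive was higher, at 41.5%, but 96.0% of the orange counts of the family were on MIR166a. Among the 8 foods orange took place 7 for MIR166d, 6 for MIR166e and 5 for MIR166c. MIR166d had 352 counts in orange (0.525%), against a lowest share of 0.428% in spinach and a highest of 4.77% in olive.

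The GRF group is the miR396 family, which acts on growth-regulating factors, and it held 5.08% in orange, against 36.6% in apple, 25.7% in spinach, 18.6% in tomato, 9.12% in pear, 7.84% in olive, 0.475% in almond and 0.227% in walnut. Orange was in sixth place, and 0 of the 3 genes were above. Past the leading MIR396 gene, MIR396b had 187 counts in orange (0.279%), against 5.56% in spinach, 3.85% in olive and 3.28% in tomato. MIR396b lies 4797 bp from that gene on chromosome G7, on the other strand.

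Few counts remained for the other families. The NF-YA group (miR169, which acts on subunits of a CCAAT-binding factor) had 19 counts in orange over 16 genes, and the TCP group (miR319, which acts on factors of leaf growth) had 1 count. The 77 genes whose families are in no group had 103 counts in orange (0.154%), against 18.8% in almond, 2.03% in pear, 0.416% in apple, 0.349% in olive, 0.278% in walnut, 0.120% in tomato and 0.0218% in spinach. MIR7122a had 51 of these counts in orange, against 6821 in almond and 1644 in pear. In families numbered 6000 or above, many of which are known from few plant lineages, orange had 16 of 65 annotated genes and 68 counts, with 14 of the 16 at 1 count. There were 90 genes counted in another food and not in orange, 21 of them in at least 4 other foods. Among these 21, MIR156i reached 0.861% in olive and MIR8126 0.491% in almond, both far over the 0.00448% that a count of 0 allows in orange.

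The peach copy that took most counts of a family often differed between orange and the other foods. In 12 families with at least 100 counts in orange and more than 1 annotated gene, the leading copy of orange was compared with that of each other food with at least 10 counts. MIR156f (43.4% of the family counts in orange), MIR164c (48.3%) and MIR167a (51.3%) led in 0 of 7, 0 of 6 and 0 of 7 other foods. MIR164a led the miR164 family in apple, pear and tomato instead, with 98.8%, 98.3% and 92.9% of the family counts, against 23.5% in orange. MIR166a, with 96.0% of the miR166 counts in orange, led among the other foods only in olive, and MIR171a and MIR172a led only in apple. MIR398a held 93.2% of its family in orange and also led in spinach, tomato and walnut. The leading copies of miR159 and miR396 were the same in all 7 other foods. Copies of a family can differ by few bases in the mature miRNA or not at all, and how the authors assigned reads matching more than 1 copy is not given in the sources used here. Whether the placing of reads on peach copies set these differences was not tested, and for that reason the family sums above stand beside the gene values.

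**Figure D4:**
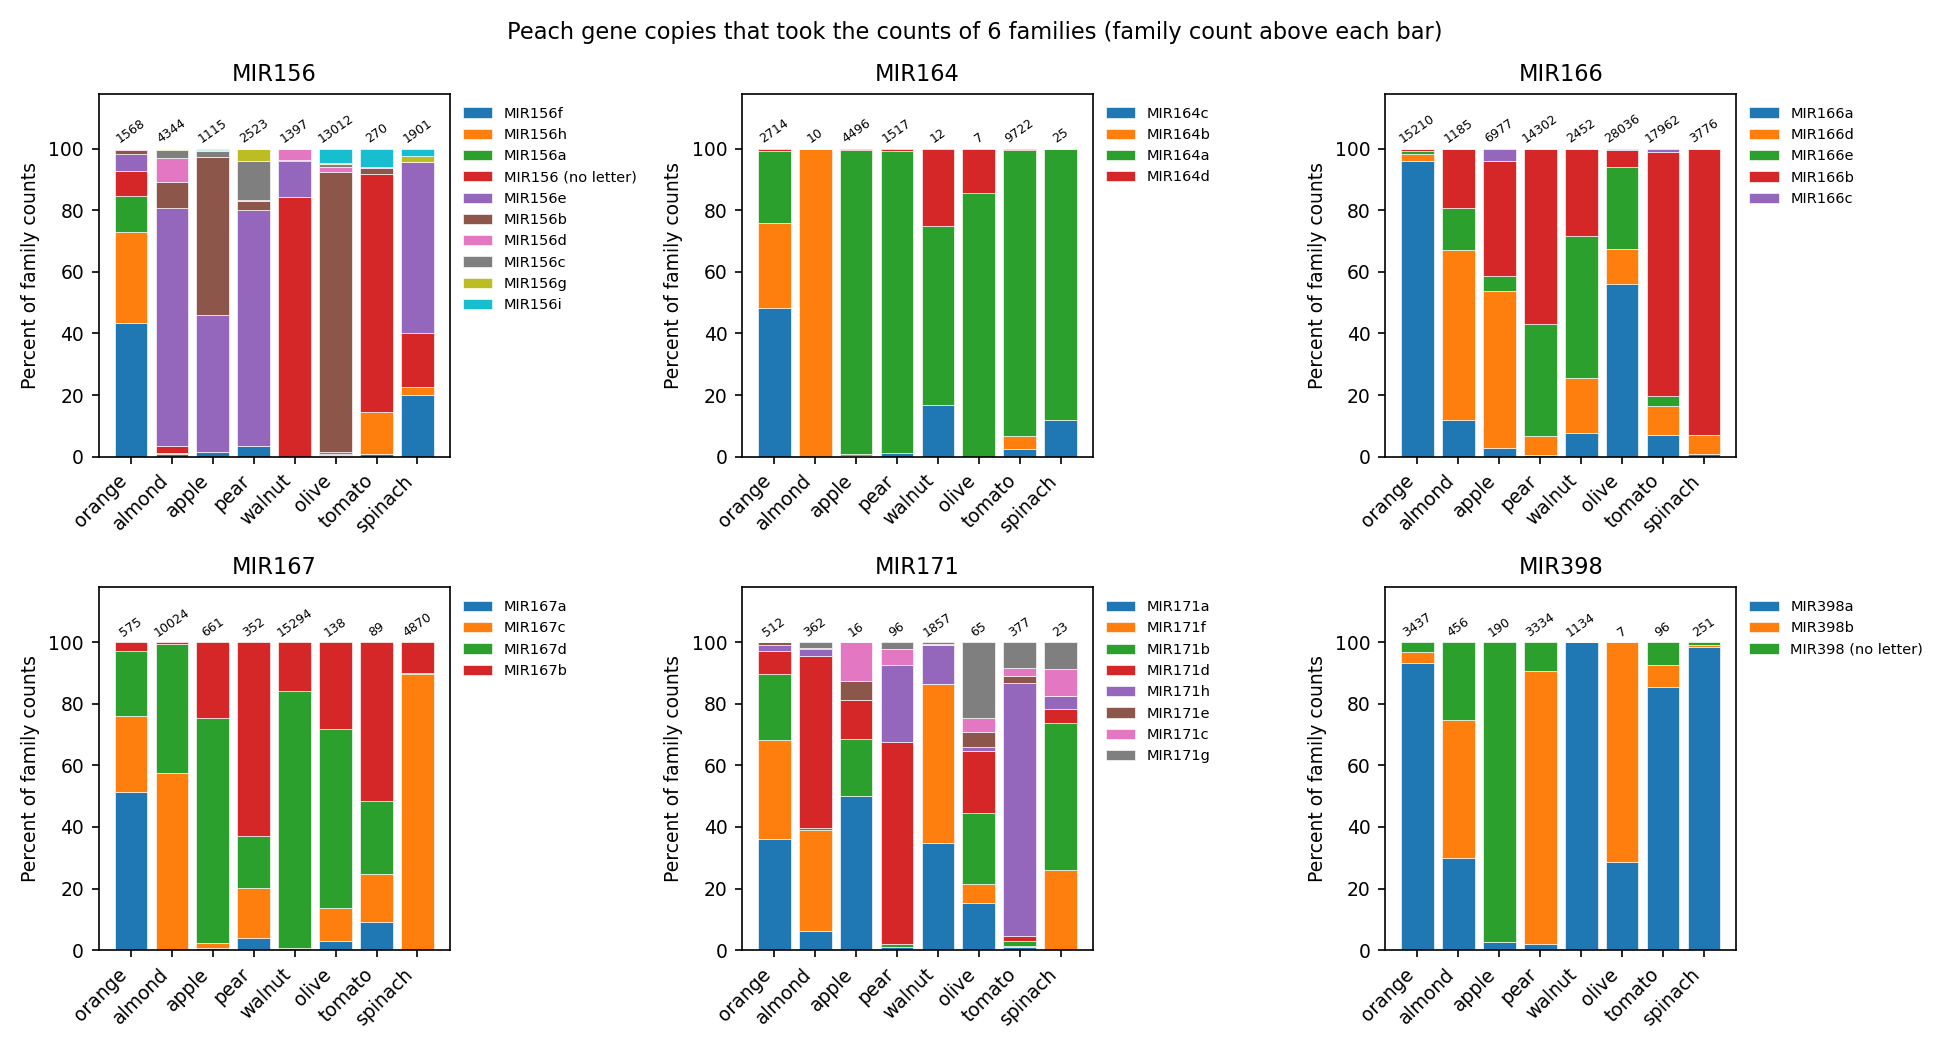
Each panel is a miRNA family, each bar a food, and the colours give the percent of the family counts (y axis) on each peach gene, with the family count written over the bar. In orange MIR156f, MIR164c and MIR167a were the largest parts of their families, at 43.4%, 48.3% and 51.3%, and in no other food with at least 10 counts did they lead.

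The likeness of the orange profile to each food was taken as the sum over genes of the smaller of both shares, where 100% means identical shares. Over all genes it was 50.7% with spinach, 45.2% with olive, 37.4% with walnut, 29.2% with tomato, 22.4% with pear, 21.8% with apple and 20.8% with almond. With the 3 highest genes of each library left out, it was 29.9% with walnut, 25.5% with apple, 21.1% with spinach, 21.1% with pear, 20.4% with tomato, 17.5% with almond and 14.0% with olive. Olive thus moved to the last place and walnut to the first. The genes left out differed between libraries, and a gene left out in 1 library of a pair added nothing to their overlap. The top MIR159 gene was left out in orange but had 7114 counts in olive. MIR168 was left out in olive but had 2894 counts in orange. The moves in place cannot be told apart from this choice of genes. These values describe 8 libraries, and their order was not tested.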

How the data were processed

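Per the study's methods, the authors removed adapters with skewer, aligned reads of 15 to 30 bases to Prunus persica NCBIv2 (miRNA annotation of miRBase 22) with ShortStack, counted them by strand with HTSeq and normalized them with DESeq2, with no versions stated. As deposited, the raw table gives the authors' whole-number counts of 209 genes, and the deposited normalized table a signal, the counts divided by 1 DESeq2 factor per library. Of per-sample columns that belong to no sample used here there were 0.

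Levels are percent of a library's counts (67019 in orange, 39249 to 212021 elsewhere), with 95% counting intervals and a limit of 3 counts for a count of 0. Alternatives were the authors' normalized reads, edgeR 4.0.16 TMM, DESeq2 1.42.0 poscounts factors, shares without the 3 highest genes, 99.9% intervals, a 2-fold minimum, a minimum of 10 counts and leaving out each other food. Named genes were those ranked 4 to 23 in orange, those above or below all other foods, those in orange alone with at least 10 counts, the leading copies of families and members of the family groups. MIR8126, MIR6286 and MIR7122a were chosen after their values were seen. The members and lists were chosen with earlier results of these data known. Calculations were tested on simulated data with a profile shared by all foods, except for genes raised in orange, and with counting error only. The simulated data held no variation between libraries of a food, so that test does not cover it. Software was Python 3.11.15, scipy 1.17.1, pandas 2.3.3, R 4.3.3 and matplotlib 3.10.9. No sequences or input masses were used.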

Additional observations from a re-analysis of the deposited data

Results flagged for a closer look

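Among the shares of the 16 family groups and 6 measures of the libraries, Dixon's criterion for 8 values (95% level) set a food apart from the other 7 in 9 of 22 measures, and orange in 2 of them. Chance alone sets a value apart in about 1 in 20 groups of 8 values when these follow a normal distribution. The 8 foods are different plants and their shares were not shown to follow it, so that rate need not apply here. The phosphate group was 2.07% in orange, against 0.317% in pear as the nearest food, a gap of 0.862 of the whole range, and nearly all of it was MIR827. The F-box LCR group (miR394) was 0.427% in orange, against 0.198% in almond, a gap of 0.540 of the range. On the authors' normalized reads the phosphate group was still above all other foods and the F-box LCR group was not.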

How the results depend on the processing

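Relative to shares, the authors' normalized reads shift orange over another food by between -3.03 (almond) and 2.92 (apple) on the log2 scale, TMM by between -1.14 (olive) and 1.29 (almond) and poscounts by between -1.62 (apple) and 1.00 (almond). The number of genes above was 16, and 14 on the normalized reads (13 shared, with MIR394a, MIR398a and the top MIR159 gene lost and MIR172d gained), 17 with TMM and with poscounts, 16 without the 3 highest genes, 15 with wider intervals and 12 with a 2-fold minimum. Leaving out each other food gave 16 to 19, the most without almond, when MIR482b, MIR482d and MIR394b were added. MIR394a reversed on the normalized reads, at 0.495. The gene below (1, MIR166b) became 0 with TMM and 0 without the 3 highest genes, where it could not be compared because it is among them in tomato; it stayed at 1 to 1 when a food was left out. Families above were 4 to 6, and 6 to 6 when a food was left out, and families below stayed 0 to 0. Groups above were 4, and 2 on the normalized reads (phosphate and NAC), 2 with a 2-fold minimum (phosphate and F-box LCR) and 4 to 4 when a food was left out. Without the 3 highest genes there were again 4, but MYB gave way to the small RNA machinery. That setting left out the top MIR159 gene in orange but not in olive or tomato. It left out MIR162 in apple, pear, spinach and tomato and MIR168 in olive, but neither in orange. The change cannot be told apart from which genes were left out, so it does not rank the groups. Genes detected in orange numbered 53 with at least 10 counts in place of 97, and 48.3 in place of 87.4 at equal depth. No paired analysis was possible because each food had 1 library.

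Depth limits the low genes. Of the 97 genes of orange, 25 had 1 or 2 counts, and 1 held at most 0.1% of its counts over the 8 libraries. With 1 library per food, differences between foods, between fruits of 1 food and between library preparations cannot be told apart.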
